A study of Mus musculus with 386 samples.

Results

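A set of 20 genes of the mouse oocyte had their highest share of the transcriptome on day 2.5 after birth (P2.5), against 17.5 days of gestation (E17.5) and 6.5 days after birth (P6.5).
They were chosen on the measured values. The counts of all cells of a stage were added up and divided by their total to give counts per 1000000 (CPM). A gene was kept if it reached at least 10 CPM at P2.5, was at least 3-fold higher there than at each of the other stages after 0.5 CPM was added, and had a count in at least 50% of the P2.5 libraries. Of 54658 genes in the table, 9128 passed the level and detection limits and 32 of those, 0.351%, passed the fold limit. Leaving out 12 of these by symbol (predicted Gm and Rik genes, 2 solute carriers and Platr14) gave the 20. Their stage levels in CPM are therefore the reason they were chosen and are given as a description, with no test.

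The libraries were Smart-seq2 RNA libraries, each of 1 female germ cell picked by hand from dissociated mouse ovaries. The labels gave 386 libraries, of which 22 were of stage E17.5, 47 of P6.5 and the remainder of P2.5, with no genotype other than mouse, no strain, and no animal, litter or treatment. The rule used 18 of the E17.5 libraries, all but numbers 8, 10, 15 and 16, which were set aside as low in germ cell markers. At P2.5, 24 pairs of libraries differed by little more than the sampling noise and each pair was counted as 1 cell. Their median chi-square per gene was 0.686 to 1.03, where sampling alone gives 0.455 and the next pair had 2.84. This left 358 cells, 18 from E17.5, 47 from P6.5 and the others from P2.5. Since no animal is named, each stage is 1 sample. No test between stages was therefore possible, cells were not treated as replicates, and intervals cover counting error only.

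A library held between 1016746 and 16125066 gene counts at E17.5, between 435560 and 23982709 at P2.5 and between 5714357 and 15799302 at P6.5. The summed level of 6 germ cell markers (Ddx4, Dazl, Dppa3, Mael, Taf4b and Sycp3) lay between 1175 and 5294 CPM in the 18 E17.5 cells, 2002 and 7680 CPM in the P2.5 cells and 3636 and 6741 CPM in the P6.5 cells. Every cell used thus held germ cell transcripts. The sum does not tell the sex, or whether other cells added RNA to a library. Of 8 marker lists of other cells, 7 had their highest sum at E17.5. The 12 granulosa and pregranulosa markers summed to 290 CPM at E17.5, 24.9 at P2.5 and 10.4 at P6.5, the 6 erythroid markers to 1924, 38.9 and 1.94 CPM and the 5 mast cell markers to 1291, 0.78 and 0.26 CPM in the same order of stages. The stroma list was the exception, with 4.85, 18.5 and 24.1 CPM, and its gene Dcn had a count in 90.1% of P2.5 cells. None of the marker genes tested was among the 20, and the part of these other cells in the E17.5 levels was not tested.

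Around birth, mouse oocytes leave the pachytene stage of meiosis, arrest in diplotene and, as germ cell cysts break up, become enclosed by a single layer of pregranulosa cells to form primordial follicles. Most of these oocytes stay dormant, while a first wave begins to grow, enlarging the cell and building the egg coat, the zona pellucida. The 3 stages thus sample meiotic prophase, follicle formation and early growth.

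The 20 genes together made up 108.2 CPM at E17.5, 1324 CPM at P2.5 and 350 CPM at P6.5. Per cell, their summed level was 13.4 at the lowest, 96.8 at the median and 231.6 CPM at the highest at E17.5. At P2.5 it was 505, 1357 and 3535 CPM, and at P6.5 it was 52.8, 310 and 871 CPM. Every P2.5 cell thus lay above every E17.5 cell, while the P2.5 and P6.5 ranges overlapped. A median of 10 of the 20 genes had a count in an E17.5 cell, 20 in a P2.5 cell and 17 in a P6.5 cell. The median log2 ratio of P2.5 over E17.5 over the 20 genes was 4.42 (1.66 to 6.14), against 0.20 over all 9128 genes, and that of P6.5 over P2.5 was -1.94 (-2.23 to -1.59), against -0.17 over all. Among all genes tested, the P2.5 level was at least 3 times that of E17.5 for 16.5% and at least 3 times that of P6.5 for 1.1%, so the second limit was the narrower one.

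**Figure D1:**
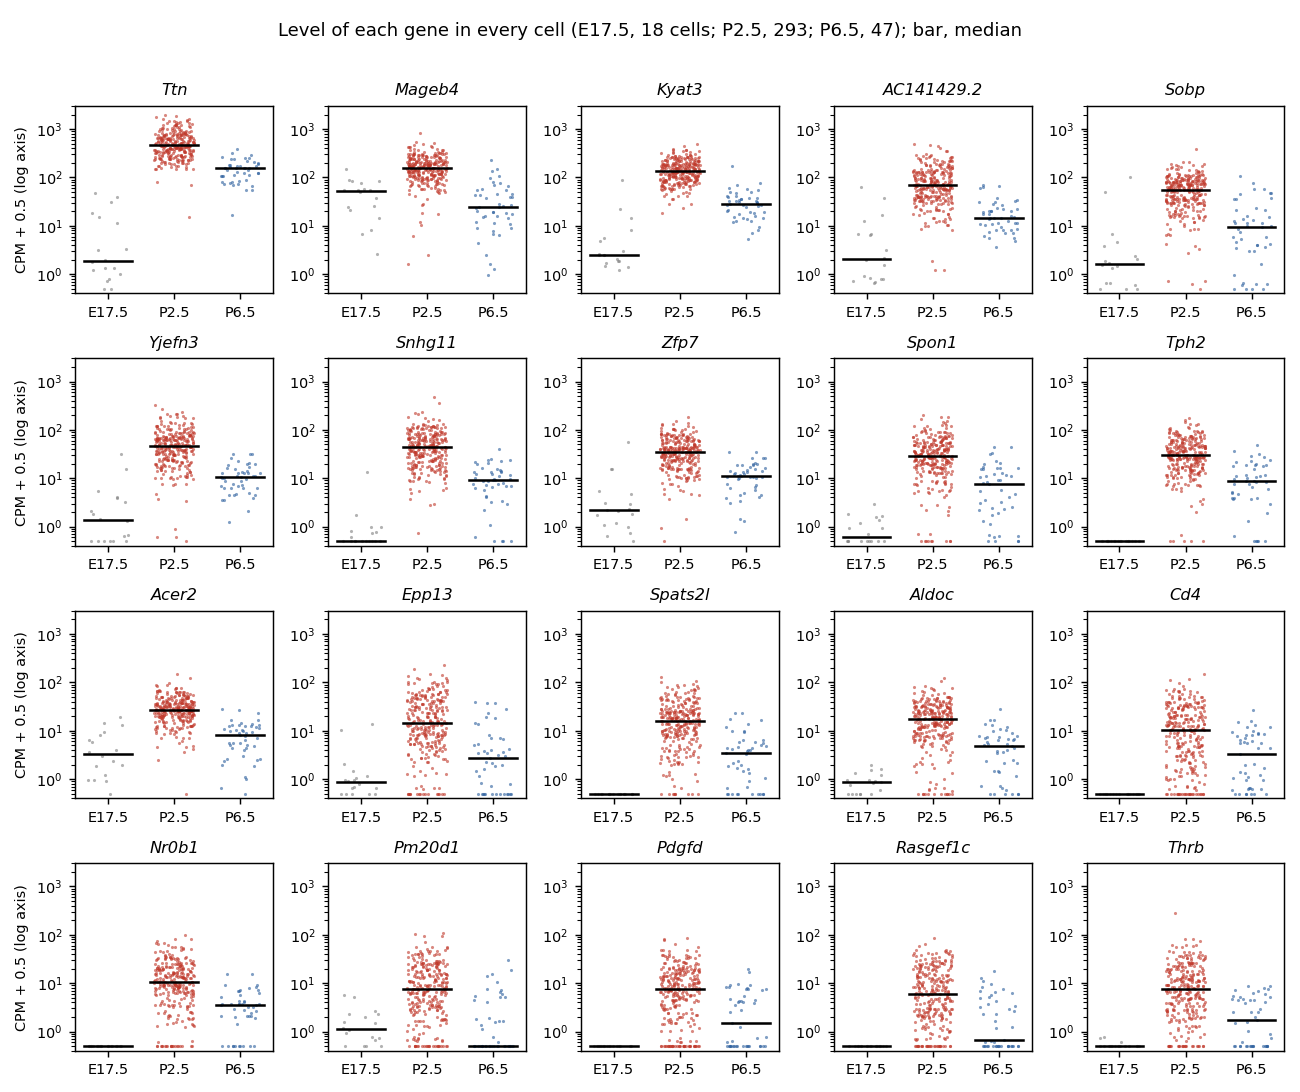
CPM plus 0.5 (log axis) of each of the 20 genes in every cell at E17.5 (18 cells), P2.5 and P6.5 (47 cells), 1 point per cell, with the median as a bar. The median was highest at P2.5 in all 20 panels, and 6 genes had no count in any E17.5 cell.

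The largest member was Ttn, which encodes titin, the giant spring protein of the muscle sarcomere. Its level in single cells was 0 at the lowest, 1.39 at the median and 47.8 CPM at the highest at E17.5. The same 3 values were 14.8, 462 and 1909 CPM at P2.5, and 16.3, 153.3 and 396 CPM at P6.5. Of the P2.5 cells, 99.7% lay above all E17.5 cells and 60.8% above all P6.5 cells. Ttn had 493 CPM in the P2.5 sum, against 9.16 CPM in the E17.5 sum, a 53.8-fold ratio (95% counting interval 50.4 to 57.5), and it alone gave 37.2% of the summed level of the 20 genes at P2.5. With median-of-ratios or TMM scaling in place of totals, Ttn was 2.59-fold and 2.78-fold above the higher of the other stages and missed the 3-fold limit. Ttn is 1 of the longest genes of the genome, and level per length gives another picture. Its exons span 116.8 kb in all, over which its mean P2.5 level was 4.73 CPM per kb, while the deposited FPKM (fragments per kilobase and per 1000000) averaged 93.8. That FPKM was 19.8 times the CPM per kb, against a median of 1.83 over 9103 genes with a single annotation, at the 99.7th percentile, and the length that the authors used for this FPKM is not stated in the labels. Mageb4 (70.04 CPM per kb) and Yjefn3 (64.7 CPM per kb) were the highest of the 20 by exonic length.

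Neb, which encodes nebulin, the ruler of the thin filament, fell just outside the limit at 2.96-fold. It had 55 CPM at E17.5, 381 at P2.5 and 128.5 at P6.5, and its deposited FPKM was 16.8 times its CPM per exonic kb, at the 99.6th percentile. Actn2 and Tcap, also of the sarcomere, had no such level. Actn2 had 1.73, 1.78 and 0.80 CPM in the order of the stages, and Tcap, which binds the end of titin in muscle, had 0.41, 0.02 and 0 CPM. These relatives, like those of the other members below, were picked after the members were known.

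Tph2 and Kyat3 act on tryptophan and its products. Tph2 encodes the brain form of tryptophan hydroxylase, the rate-limiting enzyme of serotonin synthesis, and Kyat3 encodes an aminotransferase that makes kynurenic acid from kynurenine. Tph2 had no count in the 18 E17.5 cells, in a sum where 3 counts would be 0.0303 CPM. In P2.5 cells it was 0 at the lowest, 29.2 at the median and 173.97 CPM at the highest, and in P6.5 cells 0, 8.17 and 47.8 CPM. It was detected in 98.3% of P2.5 cells and in none of 18 E17.5 cells. Its P2.5 sum was at least 929-fold that of E17.5 (lower 95% counting limit). At 3.01-fold over P6.5, Tph2 was the member nearest to the limit, and without the P2.5 cell with most of its counts, library 10, it was 2.98-fold and outside. Tph1, the form used outside the brain, had the opposite course, with 21.3 CPM at E17.5, 0.05 at P2.5 and 0.08 at P6.5, and a count in 44.4%, 3.07% and 6.38% of the cells. The mast cell list, whose sums are given above, ran the same way and reached 13305 CPM in 1 E17.5 cell, and its part in the Tph1 level was not tested. Ddc, which turns the product of either hydroxylase into serotonin, had 4.88, 0.15 and 1.14 CPM, and Maoa, which degrades serotonin, had 355, 19.7 and 10.1 CPM. Of these serotonin genes Tph2 was the one with its highest level at P2.5.

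Kyat3 was detected in every cell of every stage. It ran from 0.73 through a median of 2.01 to 87.3 CPM at E17.5, from 18 through 134.5 to 482 CPM at P2.5, and from 4.75 through 27.1 to 175.3 CPM at P6.5. It had the least spread of the 20 over P2.5 cells, with a coefficient of variation of 0.523. Its E17.5 sum of 7.15 CPM rested on 1 cell, library 13, which held 67.6% of the counts. Of the enzymes upstream of it in the kynurenine pathway, Tdo2 had 0.01, 0.05 and 0.01 CPM in the same order and Ido1 had 0 CPM at each stage. Afmid, the formamidase that releases kynurenine, had 7.35, 3.50 and 5.44 CPM and a count in 94.4%, 92.2% and 95.7% of cells, lowest at P2.5. Got2, a mitochondrial aminotransferase that can also act on kynurenine, stood at 43.2 CPM at E17.5, 196.6 at P2.5 and 189.5 at P6.5, so that its P2.5 and P6.5 levels were close while those of Kyat3 were not.

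The promoters of Tph2 and of the nuclear receptor gene Nr0b1, described below, are shown because both had no E17.5 count and both hold the letters TATAAA at the distance usual for a TATA box, the site where the TATA-binding protein sits. The windows run from 250 bases before to 50 bases after the RefSeq start (GRCm38.p6), 5′ to 3′ on the strand of the gene, with TATAAA in capitals.
Tph2 promoter, chr10:115184973-115185272, minus strand: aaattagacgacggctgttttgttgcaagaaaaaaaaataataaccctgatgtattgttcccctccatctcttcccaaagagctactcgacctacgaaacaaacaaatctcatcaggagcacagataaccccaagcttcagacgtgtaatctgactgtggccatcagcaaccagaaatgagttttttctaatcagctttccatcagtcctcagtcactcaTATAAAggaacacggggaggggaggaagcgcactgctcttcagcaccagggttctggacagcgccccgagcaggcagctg
Nr0b1 promoter, chrX:86191525-86191824, plus strand: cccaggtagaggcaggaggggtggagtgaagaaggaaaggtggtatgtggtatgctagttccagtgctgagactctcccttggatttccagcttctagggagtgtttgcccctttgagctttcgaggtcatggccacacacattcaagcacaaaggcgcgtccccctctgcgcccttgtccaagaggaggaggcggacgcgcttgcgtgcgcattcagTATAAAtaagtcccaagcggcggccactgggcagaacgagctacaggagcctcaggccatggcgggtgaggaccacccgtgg
TATAAA begins 30 bases before the start in Tph2 and 32 bases before it in Nr0b1. Of 19 windows found for 15 of the 20 genes, these 2 (10.5%) had TATAAA on the strand of the gene between 25 and 35 bases before the start, against 1.75% of all 32851 windows, a position chosen after the matches were seen. Over the whole window and both strands, 4 member windows (21.1%) and 13.6% of all windows held it, the others being windows of Pdgfd and Thrb with the letters farther from the start. The other motifs searched on both strands were CAGGTG, in 26.3% of member windows and 20.2% of all, CCAAT, in 31.6% and 37.4%, GGGCGG, in 31.6% and 35.7%, CACGTG, in 5.26% and 7.15%, TAATTA, in 5.26% and 5.29%, and TGACGTCA and TAATTG, in 0 of 19 member windows and in 1.79% and 8.0% of all. Median GC content was 56.3% in member windows and 52.7% in all. Spon1, Zfp7, Cd4, Pm20d1 and AC141429.2 had no window in the table used.

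Nr0b1 encodes DAX1, an orphan nuclear receptor without a usual DNA-binding domain, which represses the activation of steroidogenic genes by the Nr5a1 product. It had no E17.5 count, 0 at the lowest, 10.2 at the median and 100.8 CPM at the highest in P2.5 cells, and 0, 2.99 and 15.1 CPM in P6.5 cells. It was at least 490-fold higher in the P2.5 than in the E17.5 sum, and 93.2% of P2.5 cells had a count. Its partner Nr5a1, a marker of supporting cells, had 5.33 CPM at E17.5, 1.3 at P2.5 and 0.80 at P6.5, and its relative Nr0b2 stayed at or below 0.07 CPM. Thrb, the beta receptor of thyroid hormone, had 3 counts in 18 E17.5 cells, 10.4 CPM at P2.5 and 2.48 CPM at P6.5. Its counting interval for P2.5 over E17.5 was wide, from 116.9-fold to 1657-fold. In P2.5 cells it ran from 0 through 7.15 to 287.95 CPM, and 1 cell held 4.40% of its counts, without which it had 9.92 CPM and missed the 10 CPM limit. Thra, the alpha receptor, had 1.93, 16.9 and 12.9 CPM in the order of the stages. Zfp7, a zinc finger gene, had 8.77, 38.7 and 12.1 CPM, and library 6 held 63.8% of its E17.5 counts. Sobp, a nuclear zinc finger protein needed for the mouse inner ear, had 7.06, 56.5 and 15.9 CPM, and library 18 held 50.6% of its E17.5 counts.

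Nr0b1 and Mageb4 were the 2 members on the X chromosome, at chrX:86191764-86195947 (plus strand) and chrX:86250254-86305093 (minus strand) in GENCODE M21, 54306 bases apart. Mageb4 belongs to the MAGE family, whose members are expressed mostly in germ cells and bind ubiquitin ligases. It was the member with the highest E17.5 level, and was present in every cell. It ran from 2.14 through 51.7 to 148.3 CPM at E17.5, from 1.13 through 155.6 to 824 CPM at P2.5 and from 0.45 through 24.2 to 233.8 CPM at P6.5, so the stages overlapped, with 54.6% of P2.5 cells above all E17.5 cells and 22.9% above all P6.5 cells. The P6.5 median was thus below that of E17.5. The pseudogene Mageb10-ps, annotated within the same span at chrX:86299922-86301328, had nearly the same levels, 54.1, 147.3 and 37.8 CPM, against 53.2, 169.5 and 36.3 CPM for Mageb4. Members of this family are close copies, and how the authors' counting shared reads between them is not stated in the labels, so the level of Mageb4 alone is uncertain. Mageb16 had 12.8, 17.9 and 9.95 CPM, and Mageb1, Mageb2, Mageb5 and Mageb18 stayed at or below 0.07 CPM. Across P2.5 cells the Spearman correlation of Nr0b1 with Mageb4 was 0.193, and across P6.5 cells it was 0.386.

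Aldoc, Acer2, Yjefn3 and Pm20d1 encode metabolic enzymes or relatives of one. Aldoc, the brain form of the glycolytic enzyme aldolase, had 0.38 CPM at E17.5, 20.1 at P2.5 and 4.88 at P6.5, and ranged in P2.5 cells from 0 through 16.7 to 122.7 CPM. It was the only member on any of 16 pathway lists. Aldoa, the common form, was far more abundant and had 261.4, 168.6 and 262.3 CPM, the lowest of its 3 values at P2.5. Of the 14 tested genes of glycolysis, the 2 whose P2.5 level was at least 3 times that of E17.5 were Aldoc and Ldhb, a share near the 16.5% of all genes tested. Ldhb, the lactate dehydrogenase subunit that oocytes use, had 104.3, 2994 and 4703 CPM, the most at P6.5.

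Acer2, a Golgi ceramidase that frees sphingosine from ceramide, was detected in 94.4% of E17.5, 99.7% of P2.5 and 97.9% of P6.5 cells. Its medians were 2.83, 26.9 and 7.67 CPM in the order of the stages, and its highest cells had 18.7, 147.7 and 27.6 CPM. Acer3, a ceramidase of the same family, had 157.3, 29.2 and 29.1 CPM, so that both stood near the same level at P2.5 only. Asah1, another ceramidase, had 51, 73.9 and 31.2 CPM, also the most at P2.5. Acer1 and Asah2 stayed at or below 5.41 CPM. Yjefn3, a relative of the enzyme that repairs damaged NADPH, had 4.78, 52.3 and 10.8 CPM, with 64.1% of the E17.5 counts in library 6. Naxe, that enzyme itself, had 170.9, 273.4 and 224.8 CPM. Pm20d1, a secreted enzyme that joins fatty acids to amino acids, had 1.21, 13 and 2.71 CPM. Its P6.5 median was 0 CPM and 48.9% of P6.5 cells had a count, against 91.8% of P2.5 cells. When every cell was thinned to 400000 counts, Pm20d1 was detected in 33.3% of E17.5, 76.1% of P2.5 and 36.2% of P6.5 cells, against 77.8%, 91.8% and 48.9% without thinning. P2.5 was highest either way, while E17.5 and P6.5 were close after thinning, with 6 of 18 and 17 of 47 cells.

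Secreted and surface proteins formed another part. Pdgfd encodes a platelet-derived growth factor chain that acts through the receptor encoded by Pdgfrb. It had no E17.5 count, 11.9 CPM at P2.5 and 3.23 CPM at P6.5, at least 319.8-fold higher at P2.5 than at E17.5. It was detected in 87.7% of P2.5 and 61.7% of P6.5 cells. Pdgfb, whose product binds the same receptor, had 0.02, 9.32 and 12.8 CPM, the most at P6.5, and Pdgfrb itself had 0.38, 0.10 and 0.46 CPM. Spon1 encodes F-spondin, a matrix protein first described in the floor plate of the neural tube. Its medians were 0.10, 28.1 and 7.06 CPM, and 94.2% of P2.5 cells lay above all 18 E17.5 cells.

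Cd4 encodes the co-receptor of helper T cells. It had no E17.5 count, 16.7 CPM at P2.5 and 4.45 CPM at P6.5, with a P2.5 range of 0 through 9.87 to 148.6 CPM and a count in 91.5% of P2.5 and 85.1% of P6.5 cells. Most genes looked up that mark T cells or leukocytes were near 0 at P2.5. Cd3e had 0.04 CPM, Cd3g 0.01, Lck 0.26, Cd8a 0.04 and Ptprc, the pan-leukocyte marker, 0.11 CPM. Ptprc had a count in 10.6% of P2.5 cells, against 91.5% for Cd4. The exception was C1qb, a complement gene of macrophages and 1 of the 5 immune markers, with 0, 10.6 and 13.9 CPM in the order of the stages and a count in 88.7% of P2.5 and 95.7% of P6.5 cells. Rasgef1c, an exchange factor gene of the Ras family of switches, had no E17.5 count, 10.7 CPM at P2.5 and 2.37 CPM at P6.5. It was at least 286.8-fold higher at P2.5 than at E17.5. Its relative Rasgef1b had 11.8, 51.7 and 44 CPM.

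The remaining 4 members were Spats2l, Epp13, Snhg11 and AC141429.2. Spats2l had no E17.5 count, 20.3 CPM at P2.5 and 4.40 CPM at P6.5, and was at least 544-fold higher at P2.5 than at E17.5. Its better known relative Spats2 had 31.1, 130.9 and 179.9 CPM, the most at P6.5. Epp13 had 2.11, 25.8 and 5.68 CPM and the largest spread over P2.5 cells of the 14 members with at least 20 CPM, with a coefficient of variation of 1.21 and a range of 0 through 14 to 223.3 CPM. Snhg11, a host gene of small nucleolar RNAs that is best known from neurons, had 1.53, 46.9 and 9.59 CPM and the highest fold of the 20 over the higher of the other stages, 4.70. Of its E17.5 counts, 88.1% came from library 20. AC141429.2, an intergenic RNA gene on chromosome 18, had 8.05, 81.7 and 20.1 CPM and a count in every cell. The 20 genes lay on 14 chromosomes with at most 2 on any. The exons of a gene on the opposite strand overlapped Ttn, Kyat3, Sobp and Yjefn3, and none of those genes had more than 2.55 CPM at any stage. Smart-seq2 does not mark the strand, so reads of such overlaps cannot be assigned to either gene.

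Levels at E17.5 were uneven between cells, as the plot of the E17.5 libraries shows. They also differed between the used libraries numbered below 10 and above 10. Medians were higher below 10 for genes such as AC141429.2 (9.11 and 0.30 CPM), Acer2 (8.26 and 1.08), Ttn (6.82 and 0.61) and Yjefn3 (3.41 and 0). They were higher above 10 for genes such as Sobp (0.13 and 2.60 CPM) and Spon1 (0 and 0.78). What this split stands for is not stated in the labels. For Kyat3, Yjefn3, Zfp7, Snhg11, AC141429.2 and Sobp, 1 library gave more than 50% of the counts, and Sobp in library 11 reached 101.4 CPM against a median of 1.10 CPM. No library carried all of them, since they were libraries 13, 6, 6, 20, 5 and 18. Without the E17.5 cell that held the most counts of each gene, the log2 ratio of P2.5 over E17.5 was 5.6 for Kyat3 (4.22 with it), 4.46 for Yjefn3 (3.32), 3.28 for Zfp7 (2.08), 6.07 for Snhg11 (4.55), 4.10 for AC141429.2 (3.27) and 3.74 for Sobp (2.92), each after adding 0.5 CPM. The 4 E17.5 libraries that the rule leaves out were higher for some members and not others, and with all 22 libraries Acer2 (2.22-fold) and Pm20d1 (2.81-fold) no longer met the rule.

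**Figure D2:**
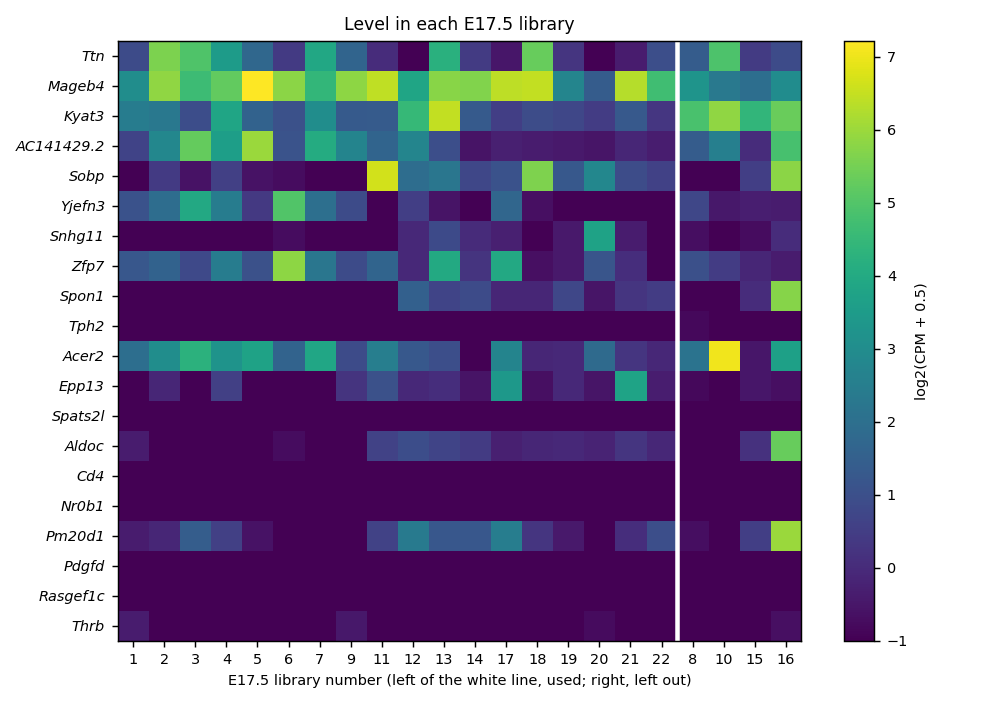
log2(CPM + 0.5) of the 20 genes (rows) in each E17.5 library (columns), the 18 used to the left of the white line and the 4 left out to the right. Bright single cells include Sobp (library 11, 101.4 CPM), Kyat3 (library 13, 87.3 CPM) and Zfp7 (library 6, 56.6 CPM), and 6 rows have no count in the 18 libraries used.

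A scale that the rule did not use is the count per spike-in RNA added to each cell. Gene counts per spike-in count had a median over cells of 76.5 at E17.5, 465 at P2.5 and 3203 at P6.5, and whether the same amount of spike-in was added at each stage is not stated in the labels. On this scale the 20 genes summed to 7.95 per 1000 spike-in counts at E17.5, 586 at P2.5 and 1180 at P6.5. None of the 20 was highest at P2.5, where 0.0657% of all genes tested were, and all 20 were highest at P6.5, as were 99.8% of all genes tested. By the median over cells, 2 of 20 were highest at P2.5, Pm20d1 and Rasgef1c, against 0.208% of all genes tested. The direction between P2.5 and P6.5 thus turned with the scale. P6.5 was between 1.56-fold (Snhg11) and 2.46-fold (Tph2) higher than P2.5 per spike-in count, with a median of 1.84 over the 20 genes, against a median of 6.78 over all genes tested and a 5th percentile of 3.62. Per spike-in count the members were therefore among the genes with the smallest P6.5 over P2.5 ratio, which repeats their choice on the other scale, since both scales use the same counts.

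**Figure D3:**
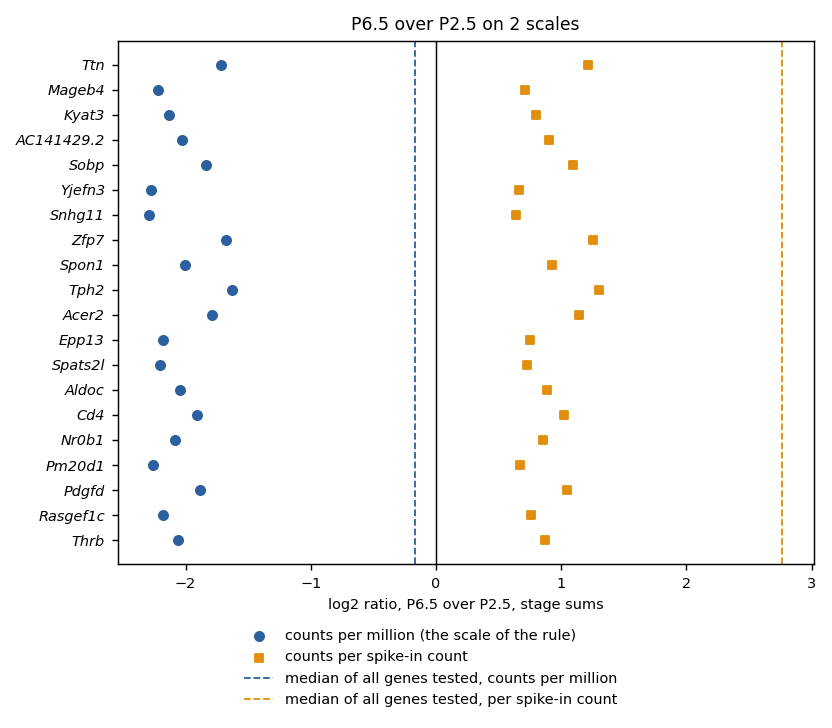
log2 ratio of P6.5 over P2.5 in stage sums for each of the 20 genes, as CPM (circles) and per spike-in count (squares), with the medians over all 9128 genes tested as dashed lines. All circles lie below 0, at -2.29 to -1.63, and all squares above 0, yet both sets lie below the median of their scale.

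Across the P2.5 cells the members did not move as 1 block. Spearman's correlation over the 190 pairs of members had a median of 0.0898, from -0.120 to 0.530, and 9 pairs were above 0.3. The 47 P6.5 cells gave a median of 0.0932, from -0.284 to 0.508, with 24 pairs above 0.3. The most alike pair at P2.5 was Ttn with Snhg11 at 0.530, followed by Ttn with Sobp at 0.393, Yjefn3 with Tph2 at 0.360, AC141429.2 with Epp13 at 0.349 and Ttn with AC141429.2 at 0.347. In P6.5 cells these pairs had a Spearman correlation of 0.150, 0.110, 0.312, 0.0178 and 0.0531, so of the 5 only Yjefn3 with Tph2 had about the same value at both stages. All of these values are descriptions over cells that share a denominator and may share animals. The genes of these pairs also had a Spearman correlation with gene counts per cell of -0.34 (Ttn) to -0.11 (Epp13) at P2.5. The part of depth in the pair values was not tested. The 7 members with the weakest link (Zfp7, Spats2l, Aldoc, Nr0b1, Pm20d1, Pdgfd and Rasgef1c) had a Spearman correlation of at most 0.17 with the mean rank of the other members, while Yjefn3, Tph2, Ttn and AC141429.2 had 0.45, 0.44, 0.43 and 0.42.

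The promoters of the most alike pair are shown for comparison, again from 250 bases before to 50 bases after the RefSeq start (GRCm38.p6). Capitals mark CCAAT and CAGGTG.
Ttn promoter, chr2:76982498-76982797, minus strand: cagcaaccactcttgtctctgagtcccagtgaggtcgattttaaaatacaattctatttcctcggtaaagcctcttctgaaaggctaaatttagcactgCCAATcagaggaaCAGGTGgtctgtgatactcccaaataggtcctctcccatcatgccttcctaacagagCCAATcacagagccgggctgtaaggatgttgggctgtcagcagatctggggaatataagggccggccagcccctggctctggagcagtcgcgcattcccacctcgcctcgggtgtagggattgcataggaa
Snhg11 promoter, chr2:158375463-158375762, plus strand: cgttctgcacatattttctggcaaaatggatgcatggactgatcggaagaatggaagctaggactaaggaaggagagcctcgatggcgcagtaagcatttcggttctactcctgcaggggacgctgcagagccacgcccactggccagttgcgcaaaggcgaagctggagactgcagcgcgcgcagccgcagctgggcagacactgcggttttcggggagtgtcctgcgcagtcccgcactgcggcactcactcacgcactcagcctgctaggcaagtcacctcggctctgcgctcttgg
The Ttn window held CCAAT at 2 places and CAGGTG at 1 place, and the Snhg11 window held none of the 8 motifs.

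**Figure D4:**
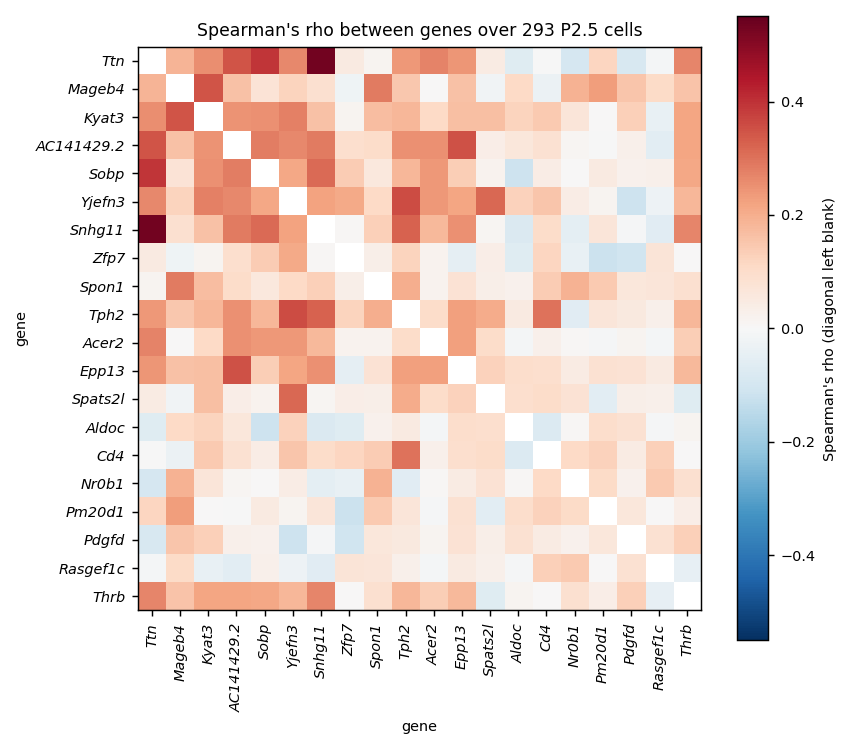
Spearman's correlation between the CPM of each pair of the 20 genes over the P2.5 cells, with genes in order of P2.5 level on both axes and colour from blue (negative) to red (positive). The upper left block around Ttn, Sobp and Snhg11 is the reddest (up to 0.530), and most of the lower right is near 0.

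P2.5 cells with a higher summed level of the 20 genes had a lower summed level of the 16 listed growth and egg coat genes, among them Zp1, Zp2, Zp3, Gdf9 and Oosp1. The Spearman correlation was -0.62 over the P2.5 cells and -0.63 over the P6.5 cells, and without Ttn it was -0.59 and -0.83. These growth genes summed to 39.5 CPM at E17.5, 3277 at P2.5 and 17005 at P6.5. By gene the Spearman correlation with the growth genes at P2.5 ran from -0.47 for Ttn and -0.42 for Snhg11 to 0.14 for Aldoc. RNA content followed the summed level less closely, with a Spearman correlation of -0.13 between the summed CPM and gene counts per spike-in count at P2.5. As counts per spike-in, the summed members and the growth genes had a Spearman correlation of 0.47 at P2.5 and 0.18 at P6.5. The sign thus also turned with the scale, but here both sums were divided by the same spike-in count of each cell. Summed member counts per spike-in had 0.83 with all gene counts per spike-in at P2.5. The part of this shared divisor in the 0.47 was not tested. The genes outside the set whose CPM was most like the summed level, of 7118 with at least 20 CPM, were Neb at 0.740, Rbm39 at 0.664, Spc24 at 0.650, Rbm8a at 0.638 and Selenok at 0.633. Ttn itself had 0.864 with the sum, of which it is the largest part.

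**Figure D5:**
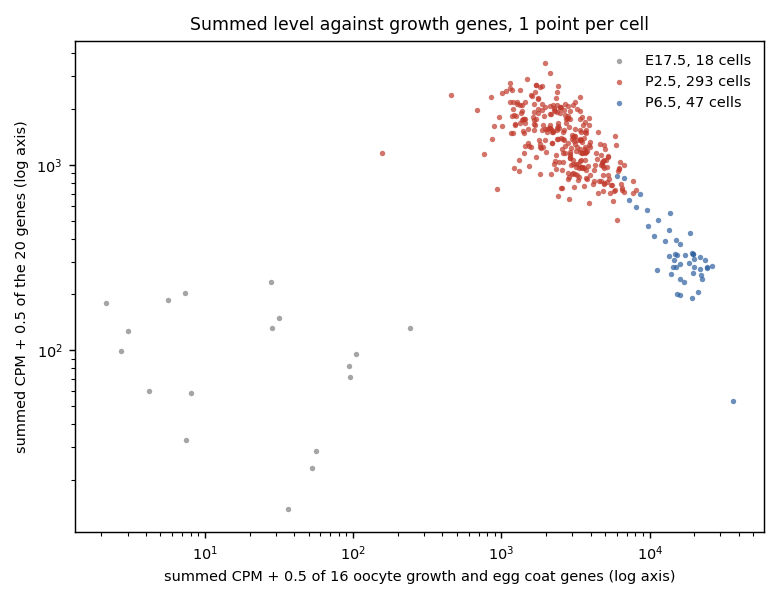
Summed CPM plus 0.5 of the 20 genes against that of 16 oocyte growth and egg coat genes, both on log axes, 1 point per cell, by stage. E17.5 cells lie low on both axes, and P2.5 and P6.5 cells form a downward band (Spearman correlation -0.62 and -0.63 within each stage) in which the ends of the 2 stages meet.

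The 3-fold limit cut a continuous range. The 5 members just inside it were Tph2 (3.01-fold), Zfp7 (3.11), Mageb4 (3.17), Ttn (3.28) and Acer2 (3.32), and the 5 genes just outside were Neb (2.96), Add2 (2.96), Nr1d1 (2.94), Atp2b3 (2.93) and Rbakdn (2.91). Of 19 other settings, Kyat3, Yjefn3, Epp13, Spats2l and Aldoc met the rule under 17, all but counts per spike-in and a 5-fold limit. Cd4, Pdgfd and Thrb met it under 11. These counts include settings that only loosened the rule (a 2-fold limit, a P2.5 limit of 1 CPM, 0.1 CPM added), where every member had to meet it. With TMM scaling 13 of the 20 met it (without Ttn, Sobp, Zfp7, Tph2, Acer2, Cd4 and Pdgfd), and with median-of-ratios scaling 12 (without Thrb as well). With E17.5 libraries 1 to 10 alone, without 8 and 10, Mageb4 (2.84-fold) and Zfp7 (2.38-fold) did not. With the deposited FPKM in place of counts 9 genes met it, 8 of them among the 20 (Ttn, Mageb4, Kyat3, Yjefn3, Epp13, Spats2l, Aldoc and Nr0b1).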

How the data were processed

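Smart-seq2 libraries of single germ cells were made with the KAPA HyperPlus kit and read on a NovaSeq as 150-base pairs, per the labels' protocols. The mm10 build, HTSeq 0.13.5, RSEM 1.3.3 and STAR 2.7.10b are named without a role, per the submitters' processing notes, which do not give the strand setting, gene annotation and filters. The authors deposited a table of whole-number counts and a table of FPKM values, each with 1 column per library, and every column matched a sample (0 unmatched).

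The 92 spike-in rows were kept out of the gene totals. Counts were summed per stage and scaled to CPM, and the rule was applied to these sums with 0.5 CPM added. The P2.5 libraries of a near-identical pair were summed as 1 cell. Ratios have exact Poisson intervals at 95%, and shares of cells are given without one. The intervals cover counting error only, since a molecule can give many reads and none carried an identifier. Where a stage had no count, the lower limit of the Poisson interval is given in place of a ratio. Each stage is 1 sample, so no test was made between stages. Depth per library is given above, and it limits how low a level can be seen.

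Members, relatives, markers and pathway lists were chosen with earlier results of these data known. Named are all 20 members, the 5 just inside and 5 just outside the limit, the 5 most alike pairs, the 5 genes most like the summed level and every list gene that met the rule, besides relatives picked after values were seen. Gene spans come from GENCODE M21, which matched 99.0% of rows by symbol, and promoters from RefSeq (GRCm38.p6), of the same assembly as mm10. The rule was tested on simulated counts. Alternatives changed scaling (with edgeR 4.0.16 for TMM), level, libraries, added CPM and limits. Python 3.11.15, numpy 2.4.6, pandas 2.3.3 and scipy 1.17.1 were used.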

Additional observations from a re-analysis of the deposited data

Results flagged for a closer look

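Of the 4 E17.5 libraries that the rule leaves out, libraries 10 and 16 held signals of members above those of all 18 libraries used. Spon1 had 52.2 CPM in library 16, against at most 2.36 CPM in the 18. Aldoc had 39.3 CPM and Pm20d1 62.95 CPM in the same library 16, against at most 1.42 and 5.06 CPM. Acer2 had 131.6 CPM in library 10, against at most 18.7 CPM. Library 16 thus held 3 members of different function at levels above their P2.5 medians. The 4 libraries were left out as low in germ cell markers, and whether these signals came from germ cells was not tested. Tph2, Spats2l, Cd4, Nr0b1, Pdgfd and Rasgef1c had no count in libraries 10 and 16.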

How the results depend on the processing

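The count of genes that met the rule was 20. It moved to 0 per spike-in count, 9 with the deposited FPKM, 13 with 2 CPM added, 46 with a P2.5 limit of 1 CPM, 98 with a 2-fold limit and 0 with a 5-fold limit. Under the other settings it lay between 14 (median-of-ratios, of which 12 were members) and 29 (medians over cells, or without the highest P6.5 cell of each gene). The median log2 ratio of P2.5 over E17.5, 4.42, moved to 5.10 per spike-in count, 3.65 with FPKM, 3.71 with all 22 E17.5 libraries, 5.12 with 0.1 CPM added, 3.03 with 2 CPM added and 5.02 with E17.5 libraries 1 to 10 without 8 and 10. It stayed positive in each. The median log2 ratio of P6.5 over P2.5 reversed to 0.86 per spike-in count, and so did every member: Ttn 1.22, Mageb4 0.71, Kyat3 0.80, AC141429.2 0.90, Sobp 1.09, Yjefn3 0.66, Snhg11 0.64, Zfp7 1.25, Spon1 0.92, Tph2 1.29, Acer2 1.13, Epp13 0.74, Spats2l 0.71, Aldoc 0.87, Cd4 1.0, Nr0b1 0.83, Pm20d1 0.65, Pdgfd 1.02, Rasgef1c 0.73 and Thrb 0.84. On that scale the median of all genes tested was 2.75, against -0.17 in CPM, so the members stayed below it. The count of members highest at P2.5 per spike-in, 0, was 2 by medians over cells. Of 460 single ratios counted as movable by an alternative, 350 moved by less than 1.5-fold, 90 by more, and 20 reversed. The 350 include P2.5 over E17.5 ratios of the 6 genes without an E17.5 count. TMM, median-of-ratios or spike-in scaling could not change those ratios, so the 350 overstate how many held. The median Spearman correlation between members was 0.0871 with every P2.5 library kept apart and 0.0733 after thinning. The last 3 alternatives tried (without the highest E17.5 or P6.5 cell, and E17.5 libraries 1 to 10 without 8 and 10) were chosen after seeing the data. No paired analysis was possible because library numbers only name cells and no test was made. Low members and E17.5 levels are limited by 18 cells and by counts near 0.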
